A study of Mus musculus with 12 samples.

Results

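The mitochondrial carrier genes of the Slc25 family were taken from a gene-level table of soleus muscle RNA by mapping each Ensembl identifier to its mouse symbol and keeping symbols made of Slc25a and a number. Of the 30323 genes in the table, 47 were members. The 12 libraries came from 24-month male C57BL/6N mice of the NIA aging colony, housed singly and given a voluntary running wheel in the cage for 8 weeks. Mice that did well on the accelerating rotarod are called high functioning (HF) and those that did poorly low functioning (LF). There were 4 groups of 3 libraries each, HF laparotomy, HF control, LF laparotomy and LF control, and soleus was taken 5 days after the abdominal surgery in the laparotomy groups and at the matching age in controls. All groups shared age, sex, strain and wheel access. The labels do not say whether the libraries of a group came from separate mice, so the p-values compare libraries, and part of that spread may be technical.

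Slc25 proteins sit mostly in the inner mitochondrial membrane and exchange metabolites, nucleotides, cofactors and ions between the cytosol and the matrix. In muscle, the adenine nucleotide translocases export ATP in exchange for ADP, and the phosphate carrier brings in the phosphate that ATP synthase needs. Other members move the aspartate, glutamate, malate and oxoglutarate of the malate-aspartate shuttle, which brings cytosolic NADH equivalents into mitochondria, and the acylcarnitines that feed fatty acid oxidation. Still others carry cofactors such as coenzyme A, NAD and iron.

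Promoter windows of 4 carriers are shown. Slc25a27, the single member called higher in HF as deposited, is not among them. Slc25a12, Slc25a13 and Slc25a20 had less RNA in every HF library than in every LF library. So did 9.31% of all genes averaging 1 TPM or more. Slc25a4 is the most abundant member. Each window runs from 250 bases before to 50 after the RefSeq transcription start on GRCm38.p6, 5′ to 3′ on the gene's strand. Capitals mark GGGCGG (a GC box) or CCAAT on either strand.
Slc25a12: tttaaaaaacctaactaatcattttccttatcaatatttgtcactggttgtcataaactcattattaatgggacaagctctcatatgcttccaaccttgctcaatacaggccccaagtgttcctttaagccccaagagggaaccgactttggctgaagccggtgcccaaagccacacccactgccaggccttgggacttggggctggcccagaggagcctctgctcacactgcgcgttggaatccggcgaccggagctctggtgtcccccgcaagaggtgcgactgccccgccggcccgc
Slc25a13: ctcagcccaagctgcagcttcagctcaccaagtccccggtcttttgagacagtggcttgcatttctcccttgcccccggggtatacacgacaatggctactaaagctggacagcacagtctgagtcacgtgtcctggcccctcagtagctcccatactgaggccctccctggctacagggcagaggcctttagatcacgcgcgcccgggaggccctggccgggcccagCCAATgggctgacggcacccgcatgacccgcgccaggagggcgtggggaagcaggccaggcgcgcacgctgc
Slc25a20: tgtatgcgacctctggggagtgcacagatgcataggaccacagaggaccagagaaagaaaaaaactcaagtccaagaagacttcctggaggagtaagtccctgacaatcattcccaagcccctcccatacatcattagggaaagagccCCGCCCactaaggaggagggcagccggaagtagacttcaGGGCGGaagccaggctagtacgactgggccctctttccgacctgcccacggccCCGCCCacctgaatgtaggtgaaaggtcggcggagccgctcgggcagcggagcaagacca
Slc25a4: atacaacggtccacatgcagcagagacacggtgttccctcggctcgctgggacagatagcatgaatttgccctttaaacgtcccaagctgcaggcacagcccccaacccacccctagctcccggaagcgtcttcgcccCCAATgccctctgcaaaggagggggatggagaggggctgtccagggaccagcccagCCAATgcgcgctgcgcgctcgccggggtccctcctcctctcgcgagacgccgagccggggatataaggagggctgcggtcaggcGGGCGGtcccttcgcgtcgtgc
The windows lie at chr2:71367706-71368005, minus strand (Slc25a12), chr6:6217124-6217423, minus strand (Slc25a13), chr9:108661886-108662185, plus strand (Slc25a20) and chr8:46211013-46211312, minus strand (Slc25a4). The Slc25a12 window held neither motif, that of Slc25a13 held 1 CCAAT, that of Slc25a20 held 3 GC boxes and no CCAAT, and that of Slc25a4 held 1 GC box and 2 CCAAT. Windows were found for 27 of the 36 tested members, 33 windows in all. GGGCGG was in 87.9% of those windows, against 35.7% of all 32851 windows in the table, and CCAAT in 60.6%, against 37.4%. Unlike the member windows, the full set was not limited to genes tested in soleus, so these shares are not like for like. The nuclear receptor half-site AAGGTCA, searched on both strands, was in 1 member window, that of Slc25a34 (3.03%, against 4.72% of all windows), and the NRF1 core GCGCATGC was in no member window, against 2.71% of all. Of the 7 carriers with a window among the 14 that were lower in HF, 5 had a GC box, 3 had CCAAT, and none had either of the other motifs in its window.

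All values are TPM, a length-corrected share of a library's transcripts, as deposited, so depth is unknown and no counting interval can be given. In bulk tissue, fewer cells of a type and less RNA per cell cannot be told apart. The skeletal muscle fibre markers Acta1, Ckm, Mb, Ttn and Des summed to 33520 to 44130 TPM in the HF libraries and 35700 to 49210 TPM in the LF libraries. Myh4, a fast myosin low in soleus, was above 30 TPM in 3 libraries, HF laparotomy 2, LF laparotomy 1 and LF control 3.

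Slc25a4 and Slc25a3 held most of the family's RNA. Slc25a4, the heart and muscle adenine nucleotide translocase (chr8:46206797-46211284, minus strand), had 2540.4, 2352 and 2263 TPM in HF laparotomy and 2485, 2424 and 2799 TPM in HF control, against 2393, 2424 and 3017 TPM in LF laparotomy and 2349.6, 2070.1 and 2633 TPM in LF control. Slc25a3, the phosphate carrier (chr10:91116574-91124059, minus strand), had 1084, 1046 and 928 TPM in HF laparotomy and 1006, 1108 and 1059.6 TPM in HF control, against 1019, 1134 and 1249 TPM in LF laparotomy and 1107, 1157 and 1257 TPM in LF control. The groups overlapped for both genes. Together they made up 83.0 to 85.0% of family TPM in HF laparotomy, 81.8 to 83.9% in HF control, 80.1 to 81.7% in LF laparotomy and 79.1 to 80.6% in LF control. The whole family summed to 3844 to 5261 TPM, or 0.400 to 0.550% of a library. Mitochondrially encoded protein genes took 35.3 to 35.9% of TPM in HF laparotomy and 32.3 to 35.4% in HF control. In LF they took 26.4 to 33.4% after laparotomy and 30.6 to 39.7% in control. The highest family sum and the lowest mitochondrially encoded share were both in LF laparotomy 3. The part of this share in the sums was not tested.

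The other members were far less abundant. Mean levels over the 12 libraries were 194 TPM for Slc25a11, 178 TPM for Slc25a12, 74.5 TPM for Slc25a20 and 51.9 TPM for Slc25a5. A further 10 members, headed by Slc25a23 (30.9 TPM), Slc25a39 (29.1 TPM) and Slc25a36 (28.9 TPM), averaged 10 to 100 TPM, and 20 averaged 1 to 10 TPM. Another 11 stayed under a mean of 1 TPM and were not tested. Slc25a53, Slc25a14 and Slc25a45 averaged 0.870 to 0.959 TPM. The other 8, Slc25a18, Slc25a43, Slc25a2, Slc25a41, Slc25a31, Slc25a48, Slc25a21 and Slc25a54, averaged 0.00964 to 0.160 TPM and never passed 0.280 TPM. Between 43 and 46 members were above 0 in a library. The remainder of the family, without the top pair, summed to 642 to 653 TPM in HF laparotomy and 673 to 788 TPM in HF control, against 766 to 995 TPM in LF laparotomy and 832 to 935 TPM in LF control.

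**Figure D1:**
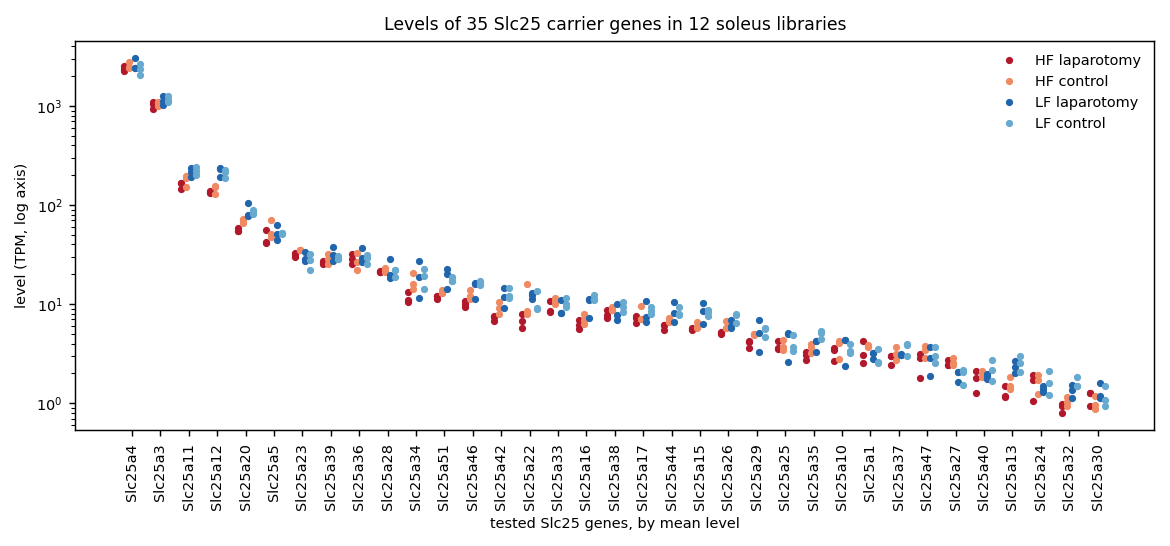
Level of each of 35 tested Slc25 genes in TPM on a log axis, ordered by mean, with 1 point per library and colour for the group. Slc25a4 (mean 2479 TPM) and Slc25a3 (mean 1096 TPM) stand above the rest, and the lowest tested members lie near 1 TPM.

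The main comparison asked which carriers differed between HF and LF soleus, averaging the difference in controls and the difference after laparotomy. Of the 36 tested members, 14 were lower in HF (38.9%), against 35.3% of all 10757 tested genes, and 1 was higher (2.78%), against 6.03%. The share of lower members lies near the background. The median member stood -0.0059 log2 from the median of all genes, a value that was 0.0071 with rescaled TPM, -0.0582 after the length and GC correction and -0.17 among genes averaging 5 TPM or more. As deposited, the carriers lower in HF included members of the malate-aspartate shuttle and single carriers of ornithine, acylcarnitine and several cofactors. Slc25a35, Slc25a44 and Slc25a46 were lower as well, and the single higher member was Slc25a27, an uncoupling-protein relative. Each difference is of log2(TPM + 1), HF minus LF, counted from the all-gene median (-0.15 as deposited), with the standard error of the fit. The adjusted p tests the difference before this centring.

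How TPM was scaled moved the split of calls. Among all called genes, 14.6% were higher in HF as deposited, 49.3% after size factors, 24.6% with TPM rescaled without mitochondrially encoded and most abundant genes, and 44.1% with the trend in transcript length and GC content removed. With size factors, 12 members were lower (33.3%, against 20.6% of all genes) and 4 were higher (11.1%, against 19.9%), Slc25a27, Slc25a23, Slc25a1 and Slc25a33. The higher count was also 2 without LF control 3 or LF laparotomy 2. Both as deposited and with size factors, 12 members were lower and Slc25a27 was higher. These 12 include Slc25a32, which passed the 1 TPM filter through its LF libraries (mean 1.48 TPM in LF and 0.975 TPM in HF). The same filter left Slc25a53 (0.783 TPM in LF and 1.135 TPM in HF) and Slc25a45 (0.677 and 1.06 TPM) untested. Across the 20 alternatives, or 19 for genes under 5 TPM, 11 of the 15 called members kept the call in each, and Slc25a11, Slc25a32, Slc25a35 and Slc25a26 lost it in at least 1.

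**Figure D2:**
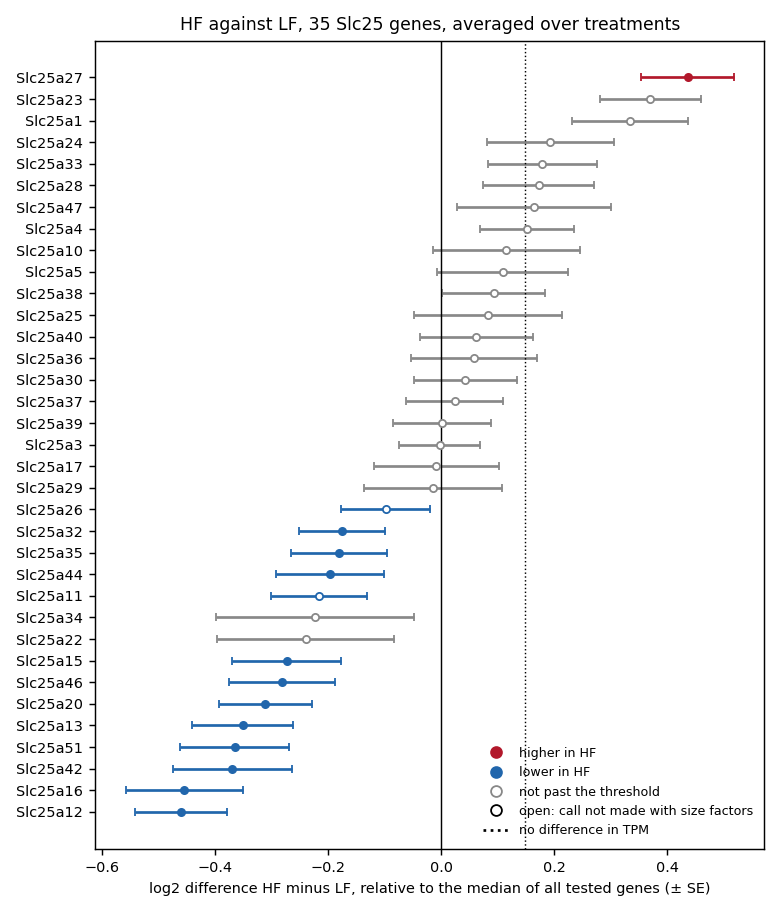
Log2 difference of HF minus LF for 35 Slc25 genes, counted from the all-gene median, with SE bars, averaged over treatments. Blue genes were lower in HF and the red gene, Slc25a27, was higher. Open coloured points mark Slc25a26 and Slc25a11, whose calls were not made with size factors, and the dotted line marks no difference in TPM.

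The malate-aspartate shuttle carriers Slc25a12, Slc25a13 and Slc25a11 were lower in HF, the last of them not with size factors. Slc25a12, the muscle aspartate-glutamate carrier (chr2:71271063-71367749, minus strand), had 134, 134 and 139.5 TPM in HF laparotomy and 129, 156 and 152 TPM in HF control, against 189.9, 238 and 234 TPM in LF laparotomy and 188, 214 and 228 TPM in LF control. Every HF library was below every LF library, with a relative difference of -0.46 ± 0.08 (limma adjusted p = 0.000402). Slc25a13, its paralog best known from liver (chr6:6041218-6217173, minus strand), was far less abundant and had 1.17, 1.49 and 1.18 TPM in HF laparotomy and 1.50, 1.82 and 1.40 TPM in HF control, against 2.32, 2.02 and 2.64 TPM in LF laparotomy and 3.00, 2.07 and 2.55 TPM in LF control. The HF libraries were again all lower, and the relative difference was -0.35 ± 0.09 (limma adjusted p = 0.00136). Slc25a11, the oxoglutarate-malate carrier (chr11:70644196-70647479, minus strand), had 168, 167 and 145 TPM in HF laparotomy and 154, 186 and 196 TPM in HF control, against 189.9, 215 and 236 TPM in LF laparotomy and 202, 220.2 and 244 TPM in LF control. Its HF and LF values overlapped, the relative difference was -0.22 ± 0.09 (limma adjusted p = 0.00524), and with size factors the call was lost (limma adjusted p = 0.141). Its exons overlap those of Rnf167 on the opposite strand, and without a stated strand setting its level is uncertain. Over all tested genes, 9.31% were lower in HF without overlap of the 6 HF and 6 LF libraries and 1.77% were higher. Among the 36 tested members 4 were lower, Slc25a12, Slc25a13, Slc25a20 and Slc25a51, and 1 was higher, Slc25a27.

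Enzymes that work with the carriers formed a list of 21, chosen with earlier results of these data known. The list was not tested as a set, and the 20 enzymes above 1 TPM were tested singly. Of these, 13 were lower in HF, against 35.3% of all genes, and none was higher, against 6.03%. Their median relative difference was -0.25. With size factors 9 were lower, against 20.6% of all genes, and 1 was higher, against 19.9%. Glud1, glutamate dehydrogenase, ranged over 42.6 to 59.0 TPM in HF and 64.1 to 81.4 TPM in LF and differed by -0.45 ± 0.08 (limma adjusted p = 0.000374). The cytosolic and mitochondrial aspartate aminotransferases of the shuttle, Got1 and Got2, averaged 251 ± 24.0 TPM in HF and 378 ± 29.1 TPM in LF, and 282 ± 29.3 TPM in HF and 430.4 ± 44.4 TPM in LF (SD, n = 6 each), with relative differences of -0.44 ± 0.08 (limma adjusted p = 0.000459) and -0.46 ± 0.09 (limma adjusted p = 0.000513). Mdh2, the mitochondrial malate dehydrogenase of the shuttle, overlapped, at 830 to 975 TPM in HF and 864 to 1209 TPM in LF. Fech, ferrochelatase, the last enzyme of heme synthesis, differed by -0.40 ± 0.08 (limma adjusted p = 0.000539). Fibre markers gave calls in both directions. Myh2, a fast oxidative fibre myosin, ranged over 1098 to 2082 TPM in HF and 2345 to 3381 TPM in LF, a relative difference of -0.80 ± 0.12 (limma adjusted p = 0.000374). Among 8 fast fibre markers 2 were lower in HF, against 35.3% of all genes, and none was higher. Their median was -0.17, or -0.14 in controls and 0.04 after laparotomy. Their summed level was 28750 to 35970 TPM in HF laparotomy and 25520 to 40020 TPM in HF control. In LF it was 34560 to 41370 TPM after laparotomy and 30970 to 37110 TPM in control. With size factors 1 fast marker was lower. Of 6 slow fibre markers 2 were higher and 1 lower, and 3 were higher and none lower with size factors. None of the fibre markers was at 0 in all libraries. Their part in the carrier differences was not tested. Without the 3 libraries with Myh4 above 30 TPM, 13 members were lower, against 30.6% of all genes, and 2 were higher, Slc25a27 and Slc25a23, against 3.31%.

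Of the 7 tested amino acid carriers, 4 were lower in HF, against 35.3% of all genes, and the median was -0.24. With size factors 4 were again lower, against 20.6% of all genes. Besides Slc25a12 and Slc25a13 these were Slc25a15 and Slc25a44. Slc25a15, the ornithine carrier of the urea cycle, had 5.63, 5.52 and 5.80 TPM in HF laparotomy and 5.86, 6.64 and 5.80 TPM in HF control, against 6.36, 8.59 and 10.2 TPM in LF laparotomy and 7.52, 8.30 and 8.63 TPM in LF control. The relative difference was -0.27 ± 0.10 (limma adjusted p = 0.00469), with 1 LF laparotomy library, at 6.36 TPM, below the highest HF value. Slc25a44, a branched-chain amino acid carrier, averaged 6.39 ± 0.608 TPM in HF and 8.43 ± 1.31 TPM in LF (SD, n = 6 each) and differed by -0.20 ± 0.10 (limma adjusted p = 0.0124). Slc25a22, the glutamate carrier, had 1 HF control library at 16.1 TPM, the highest of the 12, and a relative difference of -0.24 ± 0.16 that missed the threshold (limma adjusted p = 0.0622). Without that library it was -0.36 and passed (limma adjusted p = 0.00379), and it also passed among genes averaging 5 TPM or more (limma adjusted p = 0.0494). Without the 3 Myh4 libraries it was -0.05 (limma adjusted p = 0.352).

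Slc25a20, the carnitine-acylcarnitine carrier that admits long-chain fatty acids for oxidation (chr9:108662088-108684641, plus strand), had 59.3, 54.5 and 54.2 TPM in HF laparotomy and 65.6, 72.1 and 70.1 TPM in HF control, against 79.1, 76.7 and 106 TPM in LF laparotomy and 89.4, 81.7 and 85.4 TPM in LF control. All 6 HF libraries were below all 6 LF libraries, and the relative difference was -0.31 ± 0.08 (limma adjusted p = 0.00141). Slc25a47, the other tested gene of the carnitine and related carriers, was not called, and the median of the pair was -0.07.

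Of 13 cofactor, nucleotide and metal carriers, 6 were lower in HF, against 35.3% of all genes, and none was higher, against 6.03%. Their median was -0.0087. With size factors 5 were lower, against 20.6% of all genes, and 1 was higher, against 19.9%. Slc25a16, a carrier linked to coenzyme A transport, had 5.67, 6.15 and 6.85 TPM in HF laparotomy and 6.97, 7.88 and 6.31 TPM in HF control, against 7.23, 11.3 and 10.99 TPM in LF laparotomy and 11.2, 11.05 and 12.2 TPM in LF control. The HF and LF values overlapped through 1 LF laparotomy library at 7.23 TPM, and the relative difference was -0.45 ± 0.10 (limma adjusted p = 0.00119). Slc25a42, a coenzyme A carrier, had 7.39, 6.82 and 7.60 TPM in HF laparotomy and 8.00, 10.5 and 9.06 TPM in HF control, against 9.20, 11.7 and 14.5 TPM in LF laparotomy and 12.0, 11.5 and 14.4 TPM in LF control. Here too a single LF laparotomy library, at 9.20 TPM, lay within the HF range, and the difference was -0.37 ± 0.11 (limma adjusted p = 0.00264). Slc25a51, the mitochondrial NAD carrier, had 11.2, 12.0 and 11.9 TPM in HF laparotomy and 12.8, 13.8 and 12.8 TPM in HF control, against 14.2, 20.0 and 22.5 TPM in LF laparotomy and 17.2, 17.0 and 18.9 TPM in LF control. Its HF values were all below the LF values, and the difference was -0.37 ± 0.10 (limma adjusted p = 0.00173).

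Slc25a32, a folate carrier, had 0.802, 0.939 and 0.986 TPM in HF laparotomy and 1.16, 1.03 and 0.941 TPM in HF control, against 1.13, 1.37 and 1.53 TPM in LF laparotomy and 1.48, 1.85 and 1.50 TPM in LF control. It passed the 1 TPM filter through its LF libraries, and its difference of -0.18 ± 0.08 (limma adjusted p = 0.00535) was lost when the length and GC trend was removed (limma adjusted p = 0.546). Slc25a26, the S-adenosylmethionine carrier, showed the smallest called difference, -0.10 ± 0.08 (limma adjusted p = 0.0237). The call was lost with size factors (limma adjusted p = 0.325), without the 3 Myh4 libraries (limma adjusted p = 0.0797) and after removal of the length and GC trend (limma adjusted p = 0.0819). It was also lost without LF control 2, LF control 3, HF control 1, HF control 3 or HF laparotomy 2, at up to a limma adjusted p of 0.0657. Its exons overlap Lrig1 on the opposite strand.

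The iron carriers Slc25a28 and Slc25a37, the glutathione carriers Slc25a39 and Slc25a40 and the pyrimidine nucleotide carriers Slc25a33 and Slc25a36 were not called as deposited. With size factors Slc25a33 was called higher (limma adjusted p = 0.0282), and after the length and GC correction Slc25a39 was called lower, at -0.18 (limma adjusted p = 0.0265). Slc25a37 shares a stretch at 100% identity with Gm16867 (mean 2.14 TPM), so its reads could be split. Slc25a46, an outer membrane member with a role in mitochondrial shape, had 9.30, 10.6 and 9.99 TPM in HF laparotomy and 12.1, 13.9 and 11.3 TPM in HF control, against 11.4, 15.9 and 16.5 TPM in LF laparotomy and 15.8, 17.2 and 15.7 TPM in LF control. The groups overlapped and the relative difference was -0.28 ± 0.09 (limma adjusted p = 0.00383).

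The adenine nucleotide and phosphate carriers were not called in either direction, 0 of 6, with a median of 0.13. Over all genes 35.3% were lower and 6.03% higher. With size factors 1 of these carriers was higher, against 19.9% of all genes. Slc25a4 stood at 0.15 ± 0.08 (limma adjusted p = 0.974) and Slc25a3 at -0.0031 ± 0.07 (limma adjusted p = 0.106), and the sign of the Slc25a3 value turned under other pseudocounts, filters and scalings. Slc25a5, the ubiquitous translocase, had 41.8, 42.0 and 55.4 TPM in HF laparotomy and 51.6, 71.0 and 47.1 TPM in HF control, against 44.3, 51.0 and 62.7 TPM in LF laparotomy and 50.7, 52.7 and 52.2 TPM in LF control, and its difference was 0.11 ± 0.12 (limma adjusted p = 0.813). Slc25a23, a calcium-dependent ATP-Mg and phosphate carrier, averaged 33.3 ± 2.32 TPM in HF and 28.6 ± 4.10 TPM in LF (SD, n = 6 each), a difference of 0.37 ± 0.09 that missed the threshold (limma adjusted p = 0.0617) and passed it with size factors (limma adjusted p = 0.00407). It also passed with rescaled TPM (limma adjusted p = 0.0105), after the length and GC correction (limma adjusted p = 0.0117), without the 3 Myh4 libraries (limma adjusted p = 0.0489), without LF control 3 (limma adjusted p = 0.0234) and without LF laparotomy 2 (limma adjusted p = 0.0439). In the other 14 alternatives it did not pass, at a limma adjusted p of 0.0530 to 0.149. Slc25a4 was 58.2 to 59.6% of family TPM in HF laparotomy and 56.1 to 60.9% in HF control, against 54.6 to 57.4% in LF laparotomy and 50.8 to 54.8% in LF control.

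Of 5 tested carboxylate carriers, 2 were lower, Slc25a11 and Slc25a35, against 35.3% of all genes, and the median was -0.18. With size factors 1 was lower, against 20.6% of all genes, and 1 was higher, against 19.9%. Slc25a35 had 2.75, 3.07 and 3.27 TPM in HF laparotomy and 3.18, 3.98 and 3.70 TPM in HF control, against 3.26, 4.26 and 4.25 TPM in LF laparotomy and 5.30, 4.48 and 5.14 TPM in LF control. Its difference was -0.18 ± 0.08 (limma adjusted p = 0.00864), and the call was lost after the length and GC correction (limma adjusted p = 0.0594). Its exons overlap Rangrf on the opposite strand. Slc25a1, the citrate carrier, stood at 0.33 ± 0.10 (limma adjusted p = 0.158) and was called higher with size factors (limma adjusted p = 0.0193). Of 5 tested adipocyte markers 1 was higher in HF, against 6.03% of all genes. It was Fabp4, which endothelial cells also express. Fabp4 made up 84.7 to 96.6% of the summed level of the adipocyte markers and the brown adipocyte markers Cidea and Ucp1. Fabp4 had 374 to 458 TPM in HF laparotomy and 351 to 528 TPM in HF control, against 286 to 372 TPM in LF laparotomy and 274 to 333 TPM in LF control. The other markers of both lists summed to 13 to 67.9 TPM in HF laparotomy and 30.7 to 95.3 TPM in HF control. In LF they summed to 24.9 to 32 TPM after laparotomy and 31.6 to 38.6 TPM in control. The lowest sum of all was in HF laparotomy 1, where Cidea had 8.778 TPM. Their part in the Slc25a1 values was not tested.

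Slc25a27, an uncoupling-protein relative best known from neural tissue (chr17:43641891-43667214, minus strand), had 2.41, 2.42 and 2.72 TPM in HF laparotomy and 2.53, 2.85 and 2.42 TPM in HF control, against 2.08, 1.63 and 2.05 TPM in LF laparotomy and 1.54, 2.05 and 2.18 TPM in LF control. Every HF library was above every LF library, and the relative difference was 0.44 ± 0.08 (limma adjusted p = 0.014). The call was made in all 19 alternatives. Schwann cell markers also differed, 3 of 5 tested being higher in HF as deposited and 5 of 5 with size factors, with a summed level of 50.5 to 167 TPM in HF laparotomy and 56.5 to 67.8 TPM in HF control, against 33.6 to 43.5 TPM in LF laparotomy and 34.6 to 39.6 TPM in LF control. Their part was not tested. Of the other marker lists, endothelial genes gave 1 higher of 7 tested and 3 with size factors. The skeletal muscle fibre markers gave 2 lower of 5 tested, Acta1 (limma adjusted p = 0.0126) and Des (limma adjusted p = 0.0238), and none with size factors. Erythroid, macrophage, fibroblast and tendon genes gave no call either way. Over all genes, 6.03% were higher and 35.3% lower as deposited, and 19.9% and 20.6% with size factors. Without HF laparotomy 3, the library with the highest Schwann sum, Slc25a27 differed by 0.43 (limma adjusted p = 0.0296). Family members under other names, Ucp2, Ucp3, Mtch1 and Mtch2, gave no call as deposited. With size factors Ucp2, an uncoupling protein, was higher (limma adjusted p = 0.0347). Ucp2 had 11.2 TPM in HF laparotomy 3, against 4.05 to 5.26 TPM in the other HF libraries and 3.09 to 6.26 TPM in LF. Ucp1, the brown fat uncoupling protein, was listed at 0 in all libraries.

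Other mitochondrial membrane transport genes gave 2 higher and 8 lower of 21 tested, against 6.03% and 35.3% of all genes, with a median of 0.01. With size factors 4 were higher and 7 lower, against 19.9% and 20.6% of all genes. The outer membrane channels Vdac2 and Vdac1 differed by -0.35 ± 0.07 (limma adjusted p = 0.000431) and -0.52 ± 0.09 (limma adjusted p = 0.000494). Tmem65, an inner membrane protein, differed by -0.39 ± 0.08 (limma adjusted p = 0.000539). The 2 higher genes were Abcb6 and Smdt1, named here after their values were seen.

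**Figure D3:**
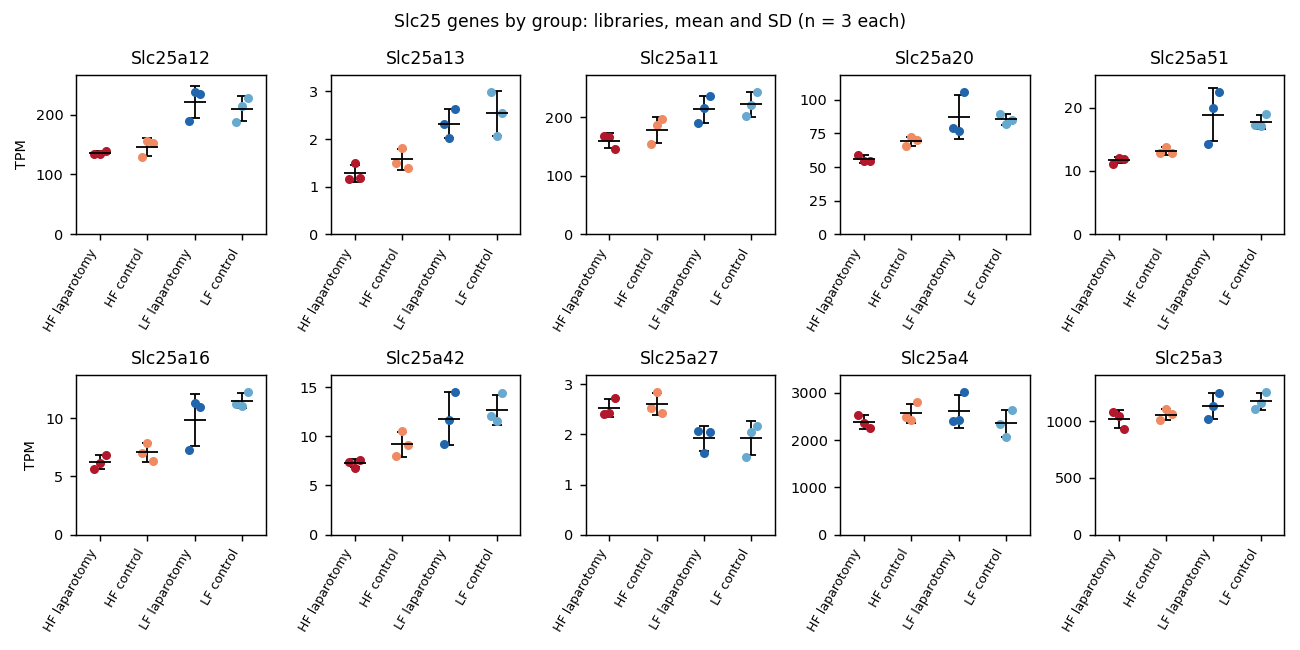
TPM of 10 Slc25 genes in each library by group, with the mean and SD of 3 libraries. Slc25a12, Slc25a13, Slc25a20 and Slc25a51 lie lower in HF without overlap and Slc25a27 higher, while Slc25a4 and Slc25a3 overlap. Over all tested genes, 9.31% were lower and 1.77% higher without overlap.

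The remaining 14 tested members, such as Slc25a34 and Slc25a24, lay between -0.22 and 0.19 on the relative scale, with limma adjusted p of 0.105 to 0.931 as deposited. Besides Slc25a39, Slc25a29 passed without LF laparotomy 1 (limma adjusted p = 0.0221) and Slc25a34 without LF laparotomy 2 (limma adjusted p = 0.0154). Slc25a3 passed without LF laparotomy 1 (limma adjusted p = 0.0422). Among the 6 LF libraries, LF laparotomy 1 had the lowest level of Slc25a51, Slc25a16 and Slc25a42.

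**Figure D4:**
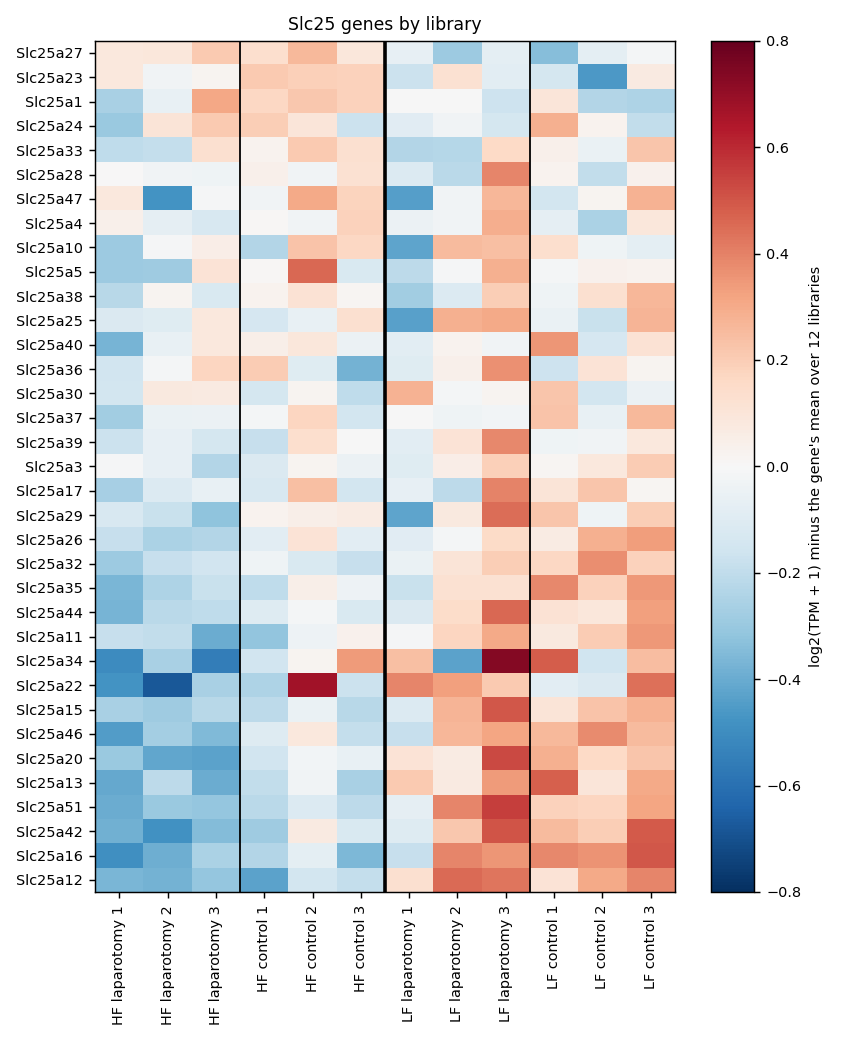
Each of 35 tested Slc25 genes by library, as log2(TPM + 1) minus the gene's mean over 12 libraries, ordered by the HF minus LF difference. The genes at the bottom are mostly blue (below their mean) in HF and mostly red (above it) in LF, with LF laparotomy 1 the main exception.

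The same comparison was made without surgery and after it. In controls, 3 members were lower in HF (8.33%, against 8.04% of all genes) and none was higher by limma (2.44% of all genes were). At an unadjusted p under 0.05, 3 members were higher and 12 lower, with 3429 of all genes in either direction. With rescaled TPM 11 members were lower, against 16.6% of all genes, and with no filter on low values 0 were, against 0.255%. The all-gene median as deposited was -0.11. The 3 lower members were Slc25a12 at -0.42 ± 0.11 (limma adjusted p = 0.0219), Slc25a16 at -0.53 ± 0.15 (limma adjusted p = 0.0245) and Slc25a13 at -0.34 ± 0.13 (limma adjusted p = 0.0416). After laparotomy 12 members were lower (33.3%, against 24.5%) and none was higher by limma (1.5% of all genes were). At an unadjusted p under 0.05, 1 member was higher and 16 lower, with 4376 of all genes in either direction. With size factors 6 members were lower (16.7%, against 10.7%), and after the length and GC correction 6 were (16.7%, against 9.75%). The all-gene median as deposited was -0.19. Among the 12, the 5 with the smallest p were Slc25a12 at -0.50 ± 0.11 (limma adjusted p = 0.00403), Slc25a20 at -0.42 ± 0.12 (limma adjusted p = 0.00599), Slc25a51 at -0.43 ± 0.14 (limma adjusted p = 0.0094), Slc25a13 at -0.35 ± 0.13 (limma adjusted p = 0.0112) and Slc25a42 at -0.42 ± 0.15 (limma adjusted p = 0.0135).

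The counts of these 3-against-3 comparisons moved with single libraries. All-gene shares of these fits are not given, so the moves are not a result about the carriers. In the averaged comparison, calls over all genes moved too, from 3627 without LF control 3 to 5100 without LF laparotomy 1. In controls the count was 0 without HF control 1, HF control 3, LF control 2 or LF control 3, and 9 without LF laparotomy 1 or LF laparotomy 3, which enter only through the shared spread. After laparotomy it was 4 without LF laparotomy 3, 5 without HF laparotomy 2 and 6 without HF laparotomy 1 or LF laparotomy 2. The interaction, which tests whether the HF minus LF difference changed with surgery, called no member and 0% of all genes by limma, with 1 member and 331 genes at an unadjusted p under 0.05. That member was Slc25a22, at -0.69 ± 0.31 (limma adjusted p = 0.9998), or -0.44 without HF control 2, its highest library, still short of the threshold. Slc25a20 and Slc25a23 followed at -0.23 ± 0.16 (limma adjusted p = 0.9998) and -0.21 ± 0.18 (limma adjusted p = 0.9998). The 2 differences share no libraries, and 29 of 36 members (80.6%) had the same sign in both, as did 82.2% of all tested genes, with Pearson's r of 0.759 over members and 0.770 over all genes, as a description across genes, which are not independent.

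**Figure D5:**
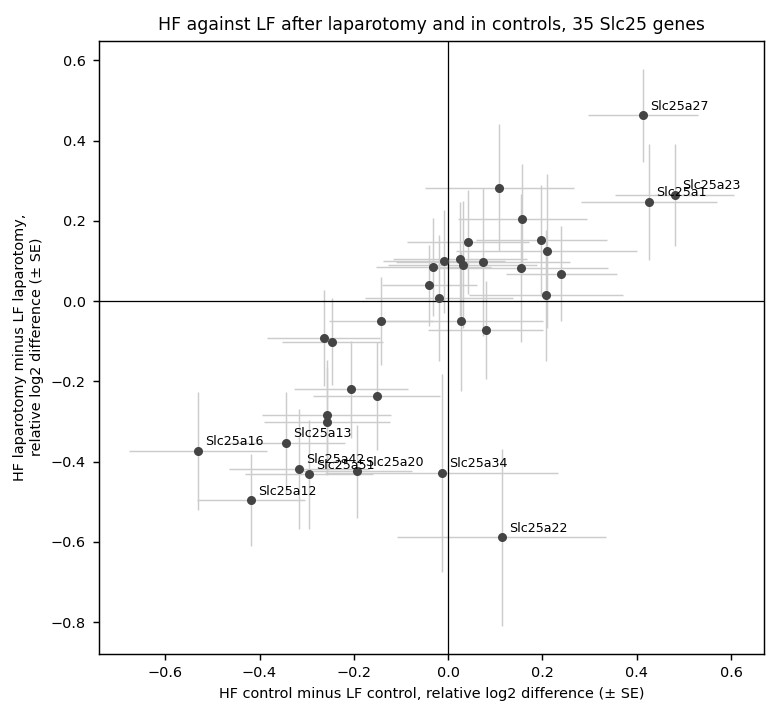
Relative log2 difference of HF minus LF after laparotomy (vertical) and in controls (horizontal) for 35 Slc25 genes, with SE bars. Most genes lie in the lower left or upper right, and Slc25a22 stands apart at the bottom right, with an interaction that did not pass the threshold.

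The last comparison set laparotomy against control. Averaged over HF and LF, limma called 0 members and 0% of all genes, with 3 members and 747 genes at an unadjusted p under 0.05, around an all-gene median of -0.07. The 3 members were Slc25a35 at -0.17 ± 0.08, Slc25a26 at -0.14 ± 0.08 and Slc25a46 at -0.15 ± 0.09 (limma adjusted p = 0.683 each). In HF mice 0 members were called, with 3 members and 665 genes at an unadjusted p under 0.05, Slc25a20 at -0.18 ± 0.12, Slc25a22 at -0.44 ± 0.22 and Slc25a46 at -0.17 ± 0.13 (limma adjusted p = 0.655 each). Without HF control 2 the Slc25a22 value was -0.19 (limma adjusted p = 0.997). In LF mice 0 were called, with 1 member and 291 genes at an unadjusted p under 0.05. The member was Slc25a35, at -0.25 ± 0.12 (limma adjusted p = 0.9995), followed by Slc25a26 at -0.18 ± 0.11 and Slc25a16 at -0.20 ± 0.15. Differences of this size were within the spread between libraries once adjusted over all genes, which does not show that laparotomy left the carriers as they were.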

How the data were processed

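Total RNA of soleus (12 libraries) was isolated with QIAzol and RNeasy columns, and polyA-selected libraries were made with a stranded TruSeq kit, per the labels' protocols. The authors deposited gene-level TPM, with kallisto, DESeq2 and GRCm38 listed, per the submitters' processing notes, but no version or role. Strand setting and read depth are not stated. Identifiers were matched to GENCODE M21 symbols (29857 matched, 466 not). A linear model on log2(TPM + 1) was fitted by limma 3.58.1 (R 4.3.3) to the 10757 genes averaging 1 TPM or more, using a mean-variance trend, 4 group means, 8 residual degrees of freedom, two-sided tests and Benjamini-Hochberg adjustment over all tested genes, at a threshold of 0.05, in 7 contrasts. The model was run on simulated data with independent noise and shifts in both directions, which does not test it under library-wide shifts in scaling. Log2 values of library pairs correlated at 0.968 to 0.991 and no library was a copy of another. The pseudocount understates differences of low genes. Near-identical copies were searched with blastn 2.17.0 at 95% identity.

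The alternatives tried were a smaller pseudocount (0.5 or 0.1), dropping the filter or raising it to 5 TPM, size factors, rescaled TPM, removal of length and GC trends, fits of the 2 groups compared, leaving out each library and leaving out those with high Myh4. The members and lists were chosen with earlier results of these data known. Full values are given for the 6 most abundant members and up to 12 called members in each direction, then up to 5 per other contrast (or the 3 of smallest p) and up to 4 per list of other genes. Results of 2 genes that the rule would name are not reported here, though counts include them.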

Additional observations from a re-analysis of the deposited data

How the results depend on the processing

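For HF against LF averaged, the count of lower members was 14 and stayed at 12 to 16 in the alternatives run. The count of higher members, 1, was 0 with a mean of at least 5 TPM, 4 with size factors, 2 with rescaled TPM, 2 with length and GC trends removed, 2 without the libraries with Myh4 above 30 TPM, and 1 to 2 when 1 library was left out. Over all genes, higher calls numbered 649 as deposited, 494 at 5 TPM, 2146 with size factors and 1075 with rescaled TPM. They numbered 1600 with length and GC trends removed and 356 without the Myh4 libraries. The members' median, -0.0059, was -0.17 at 5 TPM, -0.0582 with length and GC trends removed and 0.0071 with rescaled TPM. In controls, the higher count of 0 was 2 with size factors, 1 with rescaled TPM and 2 with length and GC trends removed, and the lower count of 3 was 0 with no filter, 11 with rescaled TPM, 0 without the Myh4 libraries, 6 in the fit of the 2 groups compared, and 0 to 9 when 1 library was left out. After laparotomy, the higher count of 0 was 1 with size factors, rescaled TPM and length and GC trends removed, and the lower count of 12 was 6 with no filter, size factors or length and GC trends removed, 7 in the fit of 2 groups, and 4 to 16 when 1 library was left out. Over all genes in controls, 8.04% were lower as deposited, 16.6% with rescaled TPM and 0.255% with no filter. After laparotomy, 24.5% of all genes were lower as deposited, 10.7% with size factors and 9.75% with length and GC trends removed. Shares for the other settings are not given, so these counts are not a result about the carriers. Slc25a3, at -0.0031, turned to 0.0120 and 0.0255 with pseudocounts of 0.5 and 0.1, 0.0265 at 5 TPM, 0.0324 with size factors, 0.0185 with rescaled TPM and 0.0882 with length and GC trends removed, and ranged from -0.0421 to 0.0487 when 1 library was left out. Slc25a5 was -0.0042 with length and GC trends removed. Among other values of named members, 873 kept direction and side of the threshold, 95 lost the call and 11 gained it. The causes were not tested. No paired analysis was possible because the labels give no replicate numbers.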
